A study of Mus musculus with 6 samples.

Results

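Broad domains of histone H3 trimethylated at lysine 4 (H3K4me3) were chosen by their measured width, as the H3K4me3 intervals of 3000 bp or more on chromosomes 1 to 19 of primordial germ cell-like cells (PGCLCs) from mouse. There were 775 such domains among 27954 H3K4me3 intervals on these chromosomes (2.77%). PGCLCs are made in culture and resemble the founder cells of the germline, and all of these were untreated cells of strain 129Sv/J at day 2 in which Tex10 was fused at its C-terminal end to an HA tag. The series holds 2 samples with an antibody against H3K4me3 (Abcam ab8580), 2 with an antibody against the HA tag (Abcam ab9110) and 2 of input DNA. The deposited intervals come as 1 list per antibody, without heights or scores, so no value below has a spread between replicates and no test between samples could be made. The sequencing depth of the samples and any sorting of the cells are not given in the sources used here. Ranges in parentheses are 95% intervals for counting error alone, computed as though adjacent intervals and genes were independent, although they are linked. Coordinates are on GRCm38 (mm10) and count from 1.

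H3K4me3 is the mark that complexes of the SET1 and MLL families place around the starts of active and poised genes, most often as a short interval over the first nucleosomes of the gene. Broad domains are the minority in which the mark spreads for kilobases into the gene, and in many cell types they are known at genes of cell identity, at developmental regulators and at strongly transcribed genes. Tex10 is a nuclear protein of the complex with Pelp1, Wdr18, Senp3 and Las1l that acts in ribosome assembly, and it is also known as a partner of the pluripotency factor Sox2 in stem cells. In bulk chromatin immunoprecipitation, a mark present in part of the cells and a weaker mark in all of them cannot be told apart.

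The DNA of 8 HA-Tex10 intervals that lay wholly inside broad domains at named genes is printed first. These 8 are examples at list genes and do not show how the DNA under HA-Tex10 varies over all domains. Each sequence runs 5′ to 3′ on the coding strand of the named gene, read from the GRCm38 reference, and capitals mark CpG dinucleotides, the substrate of DNA methylation. Intervals that touched an annotated untranslated region were left out, as were intervals under 60 bp or over 300 bp.
Zic2: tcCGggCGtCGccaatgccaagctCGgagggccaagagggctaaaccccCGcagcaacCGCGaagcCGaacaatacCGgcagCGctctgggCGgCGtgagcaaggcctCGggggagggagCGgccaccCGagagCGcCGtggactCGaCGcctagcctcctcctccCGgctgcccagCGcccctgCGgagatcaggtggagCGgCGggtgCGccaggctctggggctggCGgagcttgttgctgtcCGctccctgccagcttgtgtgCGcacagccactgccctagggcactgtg
Spry2: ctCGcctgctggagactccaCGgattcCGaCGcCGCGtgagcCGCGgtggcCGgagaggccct
Fzd7: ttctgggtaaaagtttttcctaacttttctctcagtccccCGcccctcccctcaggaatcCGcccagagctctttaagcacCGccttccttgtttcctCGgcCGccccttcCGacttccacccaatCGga
Rpl13a: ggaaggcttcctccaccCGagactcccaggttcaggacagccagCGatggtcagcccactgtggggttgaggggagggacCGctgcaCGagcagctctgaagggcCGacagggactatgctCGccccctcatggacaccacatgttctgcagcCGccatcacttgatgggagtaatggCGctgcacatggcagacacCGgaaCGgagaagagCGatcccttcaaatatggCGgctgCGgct
Sall4: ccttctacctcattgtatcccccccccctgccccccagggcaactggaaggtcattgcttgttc
Kmt2a: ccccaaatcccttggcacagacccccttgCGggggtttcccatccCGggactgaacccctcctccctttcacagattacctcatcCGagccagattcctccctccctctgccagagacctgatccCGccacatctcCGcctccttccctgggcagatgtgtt
Ncl: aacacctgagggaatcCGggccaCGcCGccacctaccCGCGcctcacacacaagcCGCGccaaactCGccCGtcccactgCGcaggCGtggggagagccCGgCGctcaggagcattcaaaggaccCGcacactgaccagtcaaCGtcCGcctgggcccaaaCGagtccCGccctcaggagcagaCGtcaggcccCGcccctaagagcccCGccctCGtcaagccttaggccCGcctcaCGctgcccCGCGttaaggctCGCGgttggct
Rpl3: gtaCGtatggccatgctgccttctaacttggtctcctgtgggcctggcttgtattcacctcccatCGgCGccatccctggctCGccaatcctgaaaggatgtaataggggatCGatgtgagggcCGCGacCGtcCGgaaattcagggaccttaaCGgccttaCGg

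The Zic2 interval (chr14:122474827-122475121) was centred 461 bp upstream of the transcription start site (TSS) of Zic2, a zinc finger factor of neural and epiblast cells, in an exon of the non-coding transcript 2610035F20Rik. It held 28 CpG in 295 bp and a GC content of 70.8%. The Spry2 interval (chr14:105898939-105899001) lay outside coding genes, 2151 bp upstream of the TSS of Spry2, a feedback inhibitor of FGF signalling, and held 9 CpG in 63 bp. The Fzd7 interval (chr1:59481871-59482000) lay 488 bp upstream of the TSS of the Wnt receptor gene Fzd7, outside coding genes. It held 3 copies of GGGCGG, the GC box that SP factors bind, and 1 CCAAT box. The Rpl13a interval (chr7:45128982-45129222) lay 341 bp upstream of the TSS of the ribosomal protein gene Rpl13a, inside the gene model Gm45713. The Sall4 interval (chr2:168765637-168765700) lay in an intron of the pluripotency factor gene Sall4 and was the sequence among these 8 with 0 CpG. It was 1532 bp downstream of the 5′-most TSS inside the domain and 423 bp from another coding TSS. The Kmt2a interval (chr9:44880439-44880600) overlapped an exon of the antisense transcript AC061963.1. It lay 776 bp downstream of the 5′-most TSS of Kmt2a inside the domain and 346 bp from another coding TSS. Kmt2a encodes an MLL family H3K4 methyltransferase. The Ncl interval (chr1:86359467-86359735) lay 201 bp upstream of the TSS of Ncl, the gene of the nucleolar protein nucleolin, in an exon of the non-coding transcript C130036L24Rik, and it held 28 CpG in 269 bp and 3 GC boxes. The Rpl3 interval (chr15:80083159-80083323) lay 165 bp downstream of the TSS, in an intron of Rpl3, with 11 CpG in 165 bp and 1 CCAAT box. The sequences thus ranged from 0 to 14.3 CpG per 100 bp, with the Spry2 interval at the upper end.

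The domains had a median width of 3540 bp (quartiles 3195.5 and 4210 bp), while the median over all H3K4me3 intervals on these chromosomes was 720.5 bp. Widths were what selected the members and are given as a description. Most domains lay close to the threshold: 244 were at least 4 kb wide, 92 at least 5 kb, 35 at least 6 kb and 5 at least 8 kb. Together they held 3.01 Mb, which was 11.1% of the 27.1 Mb covered by H3K4me3. Just inside the threshold were the domains over Hnrnpa2b1 (3000 bp), Eif5 (3001 bp) and Cpsf2 (3002 bp). Just outside it were the intervals over Cry1 (2999 bp), over Mbtd1 and Utp18 (2999 bp) and over Helz (2997 bp). Widths ran on across the threshold without a gap.

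The widest domain at a coding gene covered a TSS of Rarg, the gene of a retinoic acid receptor, with 10202 bp at chr15:102239069-102249270. Next came Trim71, which encodes an RNA-binding protein of embryonic stem cells and a target of let-7, with 9464 bp at chr9:114555760-114565223. Setd1b, the gene of a SET1 family H3K4 methyltransferase, carried 9150 bp at chr5:123134856-123144005. Sall1, a zinc finger factor gene expressed in pluripotent cells, carried 8057 bp at chr8:89039354-89047410, and Otx2, the homeobox gene of epiblast and anterior neural fate, 7855 bp at chr14:48659984-48667838. Ahdc1 (7634 bp), the TGF-β pathway inhibitor gene Skil (7477 bp) and Set (7328 bp), which encodes a histone chaperone, completed the coding genes among the 10 widest. The remaining 2 of these 10, of 10467 bp on chromosome 3 and 7770 bp on chromosome 10, covered no annotated gene. Of the 32-base words of each, 97.7% occurred more than once in the numbered, X and Y chromosomes of the reference. Reads there cannot be placed with certainty.

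A domain covered a TSS of 823 protein-coding genes, which was 3.97% of the 20722 coding genes on these chromosomes and 7.32% of the 11248 with any H3K4me3 interval over a TSS. Genes of 13 lists, which were chosen with earlier results of these data known, were read against these shares. Among pluripotency factors, 8 of 19 genes had a domain. Sox2 had the widest with 6675 bp, followed by Pou5f1, the gene of Oct4, with 6136 bp, by the Nodal co-receptor gene Tdgf1 with 5399 bp and by Utf1 with 4085 bp. Sall4, Tbx3, Klf5 and Dppa5a completed the 8, from 4005 down to 3088 bp. Other members of the list lay below the threshold, with intervals of 2531 bp at Nanog, 2501 bp at Klf4 and 1917 bp at Esrrb.

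Genes of primordial germ cells had 0 domains among 18, which in a list of this size is near the 3.97% of all coding genes. H3K4me3 covered a TSS in 12 of them, with a median width of 1357 bp and at most 2101 bp, at Kit, the receptor of germ cell migration and survival. Prdm1 and Prdm14, the regulators that set up the germ cell fate, had intervals of 1363 and 1367 bp, and Tfap2c one of 812 bp. Later germline and meiosis genes had 0 domains among 19, and 1 of the 19 was marked at all. The defining markers of the labelled cell type were marked in 6 of 8 cases (Prdm1, Prdm14, Tfap2c, Dnd1, Kit and Itgb3), while Nanos3 and Dppa3 had no interval over a TSS. Over all coding genes, 54.3% were marked. Markers of the epiblast-like state from which mouse PGCLCs are usually made had a domain in 3 of 4 cases, at Otx2, at Dnmt3b (3072 bp), which encodes a de novo DNA methyltransferase, and at the growth factor gene Fgf5 (3344 bp).

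Markers of other cell types the culture could hold mostly had no domain. In lists of 6 to 39 genes, 0 domains is near the 3.97% of all coding genes, so the zeros below are not read as a trait of the lists. Mesoderm markers had 0 domains among 7 genes, with 5 marked and Eomes the widest at 2421 bp. Endoderm markers had 0 domains among 6, with 4 marked and Sox17 the widest at 2010 bp. Fibroblast or feeder markers had 0 domains among 7, with only Twist1 and Twist2 marked, and the neuroectoderm list had 1 of 5, at Sox1 (3181 bp). Genes specific to differentiated tissues had 0 domains among 24 and H3K4me3 at 1, the cartilage collagen gene Col2a1. The 39 Hox genes, which pattern the body axis, had 0 domains. Of these, 17 were marked, with a median of 777 bp and a maximum of 2357 bp at Hoxc13. Among 35 other developmental transcription factors, 4 had a domain: Otx2, Zic2 (6742 bp), Meis2 (5833 bp) and Sox1.

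Signalling genes also carried domains. In the list of BMP, Nodal and FGF signalling, 11 of 30 genes had a domain (36.7%), and the widest were at inhibitors: Skil (7477 bp), the FGF antagonist Spry2 (6434 bp), the ERK phosphatase gene Dusp6 (5811 bp) and Smad7 (4900 bp), which blocks TGF-β receptors. The ligand genes Nodal (3923 bp), Fgf4 (3460 bp) and Fgf5 were also among the 11. In the Wnt list 8 of 30 genes had a domain (26.7%). These were the receptors Fzd7 (6325 bp), Fzd2 (4071 bp), Fzd8 and Lgr4 (4659 bp), the kinase gene Gsk3b (3824 bp), the nuclear effectors Lef1 and Tcf7l2, and Axin2, a feedback inhibitor. Fzd5, which is not on the list, had one of the widest domains outside the first 10, with 7300 bp.

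Chromatin regulators formed a further group. In the list named for H3K4 methyltransferases and demethylases, 6 of 17 genes had a domain (35.3%). The list was not limited to enzymes that act on H3K4. The 6 were the writers Setd1b, Kmt2a (3725 bp) and Kmt2d (3043 bp), the histone demethylase genes Kdm2b (5748 bp) and Kdm2a (3744 bp), and Kdm5b (3036 bp). The products of Kdm2b and Kdm2a bind unmethylated CpG, and Kdm5b encodes a demethylase of H3K4me3 itself. Of 25 Polycomb and DNA methylation genes, 8 had one (32%), with Phc1 (6774 bp), Jarid2 (6190 bp), Tet1 (5112 bp) and Cbx7 (5081 bp) the widest. The list of 20 cytosolic ribosomal protein genes had the highest share, with 11 genes (55%). Their domains were moderate in width, from 4478 bp at Rpl13a and 4431 bp at Rpl7 to 3021 bp at Rps18. Over all coding genes with an Rpl or Rps symbol and a number, 25 of 71 had a domain (35.2%, 25.1 to 46.8%), against 16 of 358 Zfp symbols (4.47%, 2.77 to 7.14%) and 0 of 1116 olfactory receptor genes. Ribosome biogenesis and nucleolus genes had 3 of 18, with Ubtf (5126 bp), the RNA polymerase I factor, ahead of Ncl (3725 bp) and Senp3 (3405 bp). Tex10 itself had an interval of 2297 bp and so no domain. In the list of the Myc network and cell cycle, 10 of 25 genes had a domain (40%), led by Mycn (6139 bp), Myc (4677 bp), Cdk6 (4573 bp) and Mxi1 (4256 bp).

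**Figure D1:**
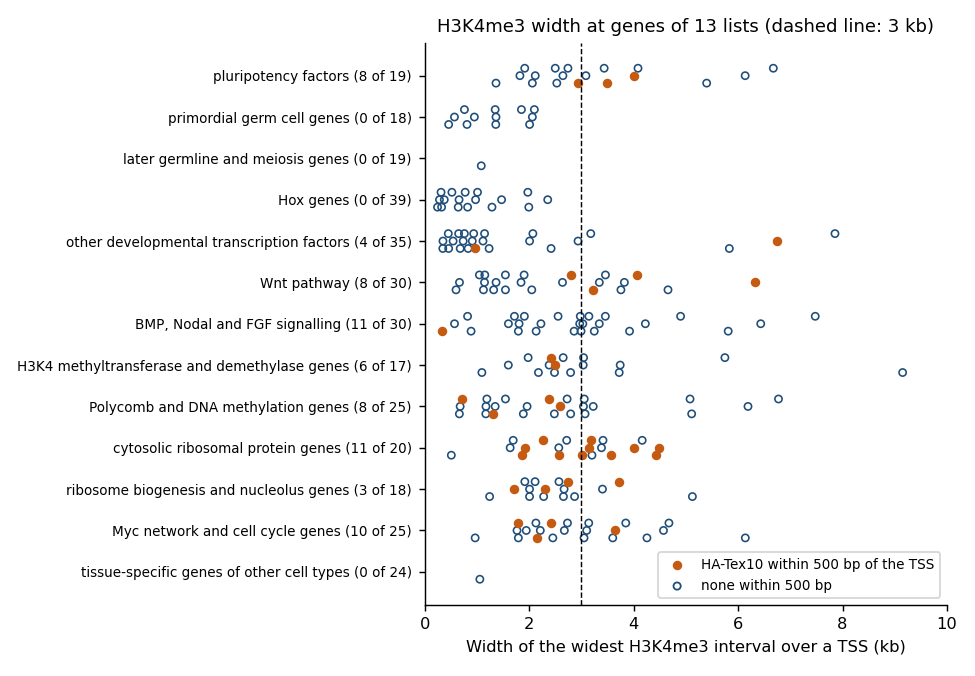
Each point is 1 gene of a list, placed by the width in kb of the widest H3K4me3 interval over one of its TSS, and the dashed line is the 3 kb threshold that defines a domain. Numbers in parentheses give genes with a domain of the coding genes in the list, and filled points had HA-Tex10 within 500 bp of the TSS. The primordial germ cell, Hox and tissue-specific lists have no point to the right of the line, which for lists of their size is near the 3.97% of all coding genes.

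Nearly all domains lay at the start of a gene. A TSS of a coding gene fell inside 688 of the 775 (88.8%, 86.4 to 90.8%) and within 1 kb of 706 (91.1%, 88.9 to 92.9%). Among the 27179 narrower intervals the shares were 37.6% and 51%. A wide interval meets a TSS more often for its width alone, so this difference is given without further reading. Over all 775 domains, 21.1% of bases were exons of coding genes, 53.7% introns and 25.2% outside coding genes. In narrower intervals with a coding TSS the shares were 29.3%, 52.4% and 18.3%. The sets are unlike, since the domains include 87 with no coding TSS inside, so the difference is not read further.

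The mark reached mainly into the gene. At the 548 genes that were alone in their widest domain, it extended a median of 1015.5 bp upstream of the 5′-most TSS inside it (952 to 1079 bp) and 2662 bp downstream (2582 to 2739 bp). The downstream side was the longer one at 490 of the 548 genes (89.4%, 86.6 to 91.7%), and it held a median of 73.6% of the width (71.5 to 75.4%). At 8645 genes alone in a narrower interval the reach was 268 bp upstream and 948 bp downstream, a downstream share of 77.1% (76.5 to 77.7%). Both sides add up to the width that selected the domains, so their greater length in domains is not read as a result. The downstream share was a few points lower in domains. The downstream share was 72.7% for genes under 5 kb long, 75.1% for genes of 5 to 50 kb and 69.7% for longer genes, so it differed by a few points between lengths. Among the coding genes of the 10 widest domains, Skil and Otx2 had 99.0% and 97.5% of the domain downstream, with 77 and 194 bp upstream. Setd1b was alone among these 8 in reaching further upstream, with 7337 bp upstream and 1813 bp (19.8%) downstream. The choice of TSS matters here, since 64.1% of these genes had at least 2 annotated TSS inside the domain (52.4% for narrower intervals). When the 3′-most TSS inside the domain was used, the downstream share was 60.5%.

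**Figure D2:**
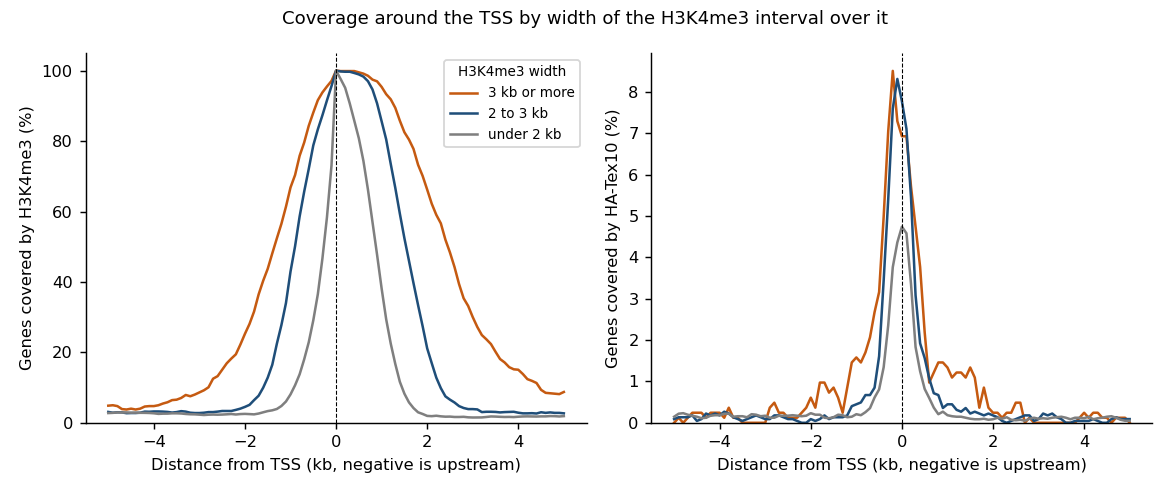
Share of genes covered by H3K4me3 (left) and by HA-Tex10 (right) at each distance from the TSS in kb, for genes under domains of 3 kb or more, under intervals of 2 to 3 kb and under narrower ones. H3K4me3 coverage is 100% at the TSS by construction and declines more slowly downstream than upstream, while HA-Tex10 coverage is highest near the TSS in every width group, at 8.51% of domain genes, with a lower level further downstream in domain genes (1.34% at 1500 bp).

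Short genes could be covered from end to end. Of the 548 genes alone in a domain, 15 lay whole inside it (2.74%, 1.67 to 4.47%), against 47 of the 8645 genes in narrower intervals (0.544%, 0.409 to 0.722%). A wider interval encloses a whole gene more often for its width alone, so this difference is not read further. Sox2, whose gene is 2057 bp long, lay whole inside its 6675 bp domain, and so did the survival gene Mcl1, the histone kinase gene Haspin, the histone variant gene H2afx, Utf1, Dppa5a, the immediate early gene Ier2 and the ribosomal protein gene Rps9. The domain genes were not short as a group. Their median length was 28909.5 bp (25319 to 31922 bp) in single-gene domains and 26900 bp (25834 to 27760 bp) in narrower ones, and these ranges overlapped.

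Domains with several genes were mostly paired starts. There were 126 domains with 2 coding genes, 5 with 3 and 2 with 4, so 17.2% (14.7 to 19.98%) held at least 2. Orientation was set by the 5′-most TSS of each gene inside the domain. By this rule, 83 of the 126 pairs were divergent (65.9%, 57.2 to 73.6%), with a median distance of 271 bp between the starts. The widest of these lay over Cks1b, which encodes a subunit of cyclin-dependent kinases, and Shc1, an adaptor of receptor signalling, with 60 bp between the starts and 6406 bp of H3K4me3. Another 35 pairs were on opposite strands with these starts facing each other, as at Zfp740 and Csad. Their starts were from 2 bp (St7l and Capza1) to 2378 bp (Fam57b and Aldoa) apart. With starts so close, the order can depend on the TSS chosen, so the 35 are not read as convergent genes, and other choices were not tested. A further 8 pairs were on the same strand, as at the histone genes Hist1h2af and Hist1h3g. The share with at least 2 genes was lower among wider domains, 11.1% at 4 kb or more (7.72 to 15.6%) and 7.61% at 5 kb or more (3.73 to 14.9%). These are part of all domains, so their ranges are not those of separate groups. The domains also held 29 of the 2054 annotated miRNA genes, in 27 domains. Among them were Mir99b and Mirlet7e in the Spaca6 domain, Mir130a, and Mirlet7i in a domain with no coding TSS.

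The 69 domains with no coding TSS within 1 kb differed in sequence from the rest. Of these, 20 lay mostly in repeated sequence (29%, 19.6 to 40.6%), against 1 of the 688 with a coding TSS inside (0.145%). Mostly repeated means that over 50% of the 32-base words have a further copy in the numbered, X and Y chromosomes of the reference. Copies on the mitochondrial chromosome and the unplaced scaffolds were not counted. A TSS of another annotated transcript fell in 26 of the 69. These included 11 with a lincRNA start, among them Malat1 (5470 bp), a nuclear RNA of most cells, the Myc neighbour Pvt1 (3284 bp), Lncenc1 and Platr10, which are known from embryonic stem cells, and the snoRNA host Snhg6. The ribosomal RNA locus annotated as CT010467.1 on chromosome 17 also held lincRNA starts. The snoRNA host Snhg15, the miRNA host Mir22hg and a block of pseudogenes around Gm10222 on chromosome 1 were without one. At the ribosomal RNA locus and the Gm10222 block the HA-Tex10 interval was nearly as wide as the domain, 5776 bp over 5768 bp and 4725 bp over 4792 bp. Of the 43 with no annotated TSS, 18 lay in the body of a coding gene, for example in Kdm6b (3621 bp), Cdh1 (3433 bp), Tet2 (3166 bp) and Ago1 (3196 bp). Over the 69 domains the median CpG content was 2.34 per 100 bp, against 4.65 in domains with a coding TSS, and the median share of bases masked as repeats was 25.1% per domain, against 12.7%.

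The bases around the starts of domain genes were rich in CpG. Within 500 bp of the TSS, the median was 7.8 CpG per 100 bp at the 823 domain genes (7.5 to 8.0) and 6.7 at 10418 genes with narrower H3K4me3 (6.6 to 6.7), in windows of equal size. From 1000 to 2000 bp downstream it was 1.8 (1.7 to 2.0) and 1.2 (1.2 to 1.2). Over the whole interval the order was the other way round, with a GC content of 54.1% in domains with a coding TSS and 58.6% in narrower ones. In the central 1000 bp the CpG medians were both 6.3 per 100 bp.

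HA-Tex10 was present in 225 of the 775 domains (29%, 25.9 to 32.3%) by at least 1 shared bp, while 9.54% of all H3K4me3 intervals on these chromosomes shared a base with HA-Tex10. The domains held 294 of the 4129 HA-Tex10 intervals (7.12%), and 284 of the 294 lay wholly inside. There was 1 interval in 170 domains, 2 in 43, 3 in 10 and 4 in 2. HA-Tex10 covered 2.80% of domain bases, and its intervals there had about the same median width as elsewhere, 235 and 232 bp. HA-Tex10 thus lay over a small part of the domain sequence.

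The share of intervals with HA-Tex10 was higher in each wider class, but the number per Mb of H3K4me3 was not. Among intervals with a coding TSS, HA-Tex10 met 4.42% of those under 0.5 kb, 6.38% of those of 0.5 to 1 kb, 12.2% at 1 to 2 kb, 20.03% at 2 to 3 kb (18.3 to 21.9%) and 27.9% of the domains (24.7 to 31.4%). Counted per length, HA-Tex10 centres numbered 95.1, 73.2, 82.1, 88.4 and 90.8 per Mb in the same order. The domain value had a range of 79.7 to 103 per Mb and that of the 2 to 3 kb class 79.96 to 97.5, so the ranges overlapped almost wholly. A wider interval thus met HA-Tex10 more often at about the same density.

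A window of equal size at every gene gives a comparison in which the length searched does not depend on width. Where the window fell could still depend on it, since it was centred on the 5′-most TSS inside the interval. HA-Tex10 at other starts was not counted, as at Jarid2, Slc3a2 and Chd2 (18, 72 and 183 bp from a coding TSS). The effect of this on the shares was not tested. HA-Tex10 lay within 500 bp of the 5′-most marked TSS at 184 of the 823 domain genes (22.4%, 19.6 to 25.3%), against 13.5% of all marked genes and 1331 of 10425 genes with narrower H3K4me3 (12.8%, 12.1 to 13.4%). The difference between domain and narrower genes was 9.59 percentage points (6.80 to 12.6). In steps of width the share was 5.90%, 7.39%, 13.4%, 19% and 22.4%. Against the next class alone, genes under intervals of 2 to 3 kb, the difference was 3.37 points (0.176 to 6.73).

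That last difference was smaller without chromosome 8. HA-Tex10 was found in 49 of the 74 domains on chromosome 8 (66.2%, 54.9 to 76.0%) and in 176 of the 701 on the other chromosomes (25.1%, 22.0 to 28.4%), where the share per chromosome ran from 10.8% on chromosome 5 to 37.5% on chromosome 13. Narrower genes showed the same feature, with HA-Tex10 within 500 bp at 35.6% on chromosome 8 and 62.2% of the domain genes there. Without chromosome 8 the share was 17.9% of domain genes (15.4 to 20.9%) and 17.0% of genes in the 2 to 3 kb class (15.4 to 18.7%), a difference of 0.966 points (-2.13 to 4.28), and that against all narrower genes was 6.61 points (3.93 to 9.60). The density without chromosome 8 was 73.3 per Mb in domains and 77.3 in the 2 to 3 kb class. The share was higher at domain genes than at narrower genes on 17 of 19 chromosomes, with 5 and 16 the exceptions. What sets chromosome 8 apart was not tested.

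**Figure D3:**
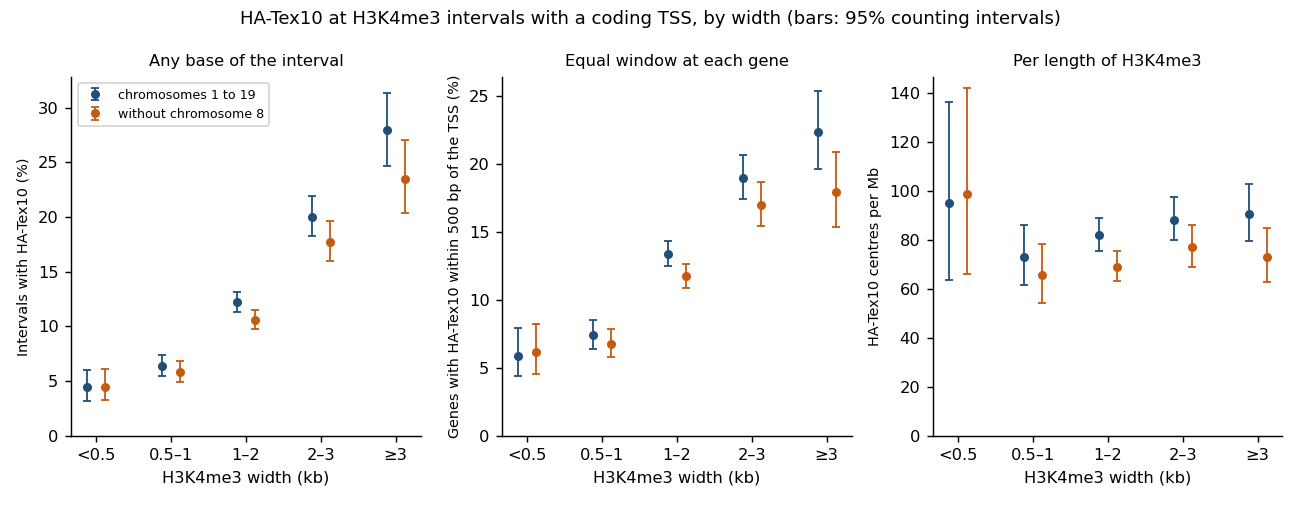
HA-Tex10 at H3K4me3 intervals with a coding TSS in 5 width classes, as the percent of intervals with any shared base, as the percent of genes with HA-Tex10 within 500 bp of the TSS, and as HA-Tex10 centres per Mb, each with its 95% counting interval. The first measure goes from 4.42% to 27.9% with width, while the densities of the widest classes overlap, and without chromosome 8 the 2 widest classes also overlap in the equal window (17.0% and 17.9%).

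**Figure D4:**
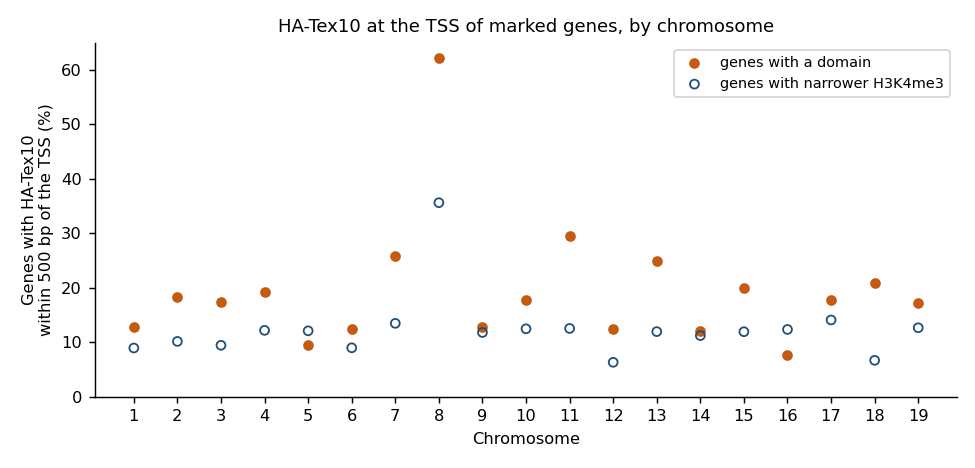
Percent of genes with HA-Tex10 within 500 bp of the TSS on each chromosome, for genes under a domain (filled) and under narrower H3K4me3 (open). Chromosome 8 has the highest value of both kinds, 62.2% and 35.6%.

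Inside the domains HA-Tex10 was densest near the TSS. In domains with a coding TSS, HA-Tex10 centres numbered 219 per Mb within 250 bp of a TSS (183 to 259), 105 per Mb at 250 to 500 bp (75.3 to 141), 50.6 at 500 to 1000 bp, 45.1 at 1000 to 2000 bp (30.6 to 64.0) and 16.7 beyond 2000 bp (6.13 to 36.3). The first range does not overlap with those of any other step. Over all domains, 174 of 293 HA-Tex10 centres (59.4%, 53.7 to 64.9%) lay within 500 bp of a TSS, where 33.5% of domain bases lie. In single-gene domains the 179 HA-Tex10 centres had a median position of -33 bp from the 5′-most TSS inside (-110 to 121 bp, negative being upstream). The quartiles were -306 and 516 bp. Downstream of the TSS lay 86 of the 179 (48.0%, 40.8 to 55.3%), compared with 71.7% of the bases of these domains. At 200 bp upstream HA-Tex10 covered 8.51% of domain genes, 7.60% of genes in the 2 to 3 kb class and 3.76% of narrower ones. At the TSS itself the order of the first 2 was the other way round, with 6.93%, 7.77% and 4.74%, and likewise at 100 bp upstream (7.29% and 8.31%). At 1500 bp downstream the shares were 1.34%, 0.223% and 0.0977%.

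Domains with the most HA-Tex10 were of different kinds. Ptma, the gene of the abundant nuclear protein prothymosin alpha, had 4 intervals in 4112 bp (chr1:86525875-86529986), with centres from 22 to 1463 bp away from a TSS. The repeated domain on chromosome 3 also had 4. Of the domains with 3, the widest were 2 that lay mostly in repeated sequence, on chromosomes 2 (5846 bp) and 15 (5170 bp), and that of Ssbp4, on chromosome 8 (5102 bp), which encodes a single-stranded DNA-binding protein. Among the coding genes of the 10 widest domains, Sall1 had 2 HA-Tex10 intervals and Trim71 had 1 of 13 bp, whereas Rarg, Setd1b, Otx2, Ahdc1, Skil and Set had none.

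In the 21 list genes whose domain held HA-Tex10, 16 of the 30 intervals were centred within 500 bp of the 5′-most TSS inside the domain. This is a stricter measure than the nearest coding TSS, which gave 59.4% over all domains, so the 2 shares are not comparable. The count by list was 7 of 11 domain genes among ribosomal proteins, 3 of 8 among pluripotency factors and 3 of 8 in the Wnt list. It was 2 of 6 in the list named for H3K4 enzymes and 2 of 8 among Polycomb and DNA methylation genes. The others were 1 of 11 in BMP, Nodal and FGF signalling, 1 of 10 in the Myc network and cell cycle, 1 of 4 among other developmental factors and 1 of 3 in ribosome biogenesis. The share over all domains with a coding TSS was 27.9%, and no list was tested against it. Rpl18 and Fzd2 had an interval centred within 50 bp of the TSS, and Sall4 one at 62 bp with 2 smaller ones in its intron at 1532 and 1820 bp. These smaller ones were 423 and 135 bp from another coding TSS. Intervals away from any coding TSS were found at Tdgf1 (1358 bp upstream), Kmt2d (1028 bp upstream), Cbx7 (1874 bp upstream) and Spry2 (1600 bp downstream and 2151 bp upstream). The Jarid2 interval, 1320 bp downstream of the 5′-most TSS, was 18 bp from another coding TSS. A further Cbx7 interval, 980 bp downstream of the 5′-most TSS, was 268 bp from another. Mnt, which encodes an antagonist of Myc, had intervals 656 bp upstream and 1376 bp downstream. The domains of Pou5f1, Sox2, Myc, Mycn, Nodal and Otx2 held no HA-Tex10 interval. At Rps2, 1 of the 2 intervals lay mostly in repeated sequence (54.5% of its words), and ribosomal protein genes have many processed copies, so the placement of reads there is uncertain.

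**Figure D5:**
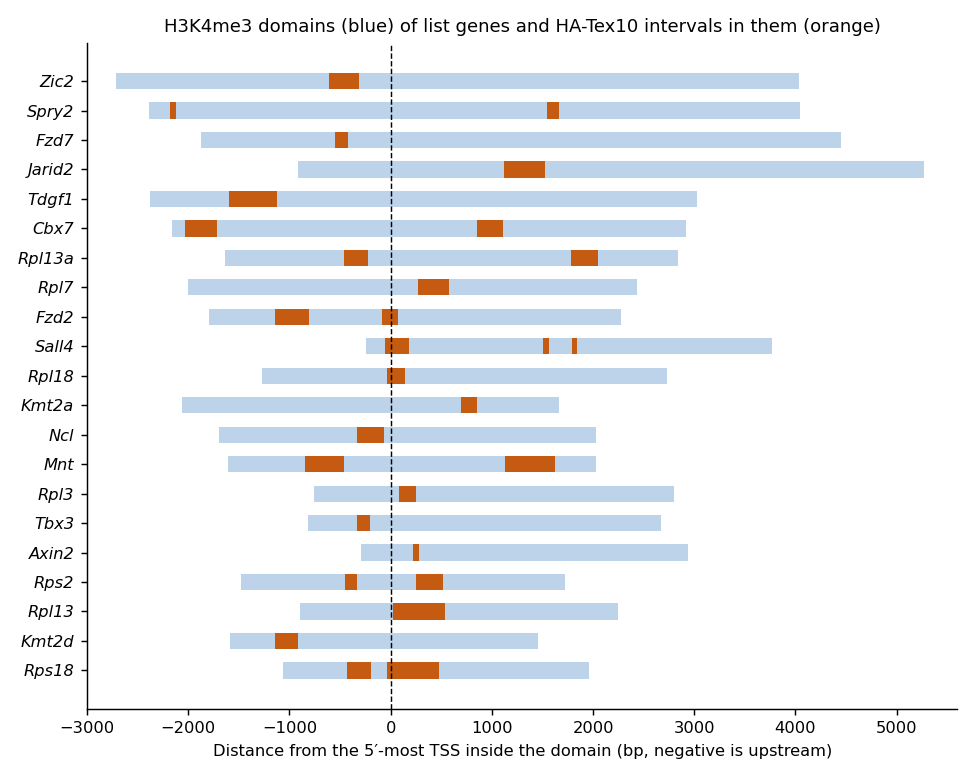
Domains of the 21 list genes that held HA-Tex10, drawn to scale along the distance in bp from the 5′-most TSS inside the domain, with upstream to the left. The blue bars run further to the right than to the left at most genes, from Zic2 (6742 bp) at the top to Rps18 (3021 bp), and the orange HA-Tex10 intervals lie around the dashed TSS line or at isolated positions up to 2151 bp away.

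At ribosomal protein genes the share with HA-Tex10 at the TSS was above the 13.5% of all marked genes, both under domains and under narrower H3K4me3. Over all Rpl and Rps symbols, HA-Tex10 lay within 500 bp at 12 of 25 genes with a domain (48%, 30.03 to 66.5%) and at 15 of 45 with narrower H3K4me3 (33.3%, 21.4 to 47.9%), and these ranges overlapped. Without chromosome 8 the counts were 11 of 24 and 14 of 44.

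Repeated sequence touched the HA-Tex10 values in domains away from coding TSS. Of the HA-Tex10 intervals in domains with no coding TSS within 1 kb, 31 of 50 lay mostly in repeated sequence (62%, 48.2 to 74.1%), against 4 of 242 in domains with a coding TSS (1.65%, 0.645 to 4.17%) and 40.2% of HA-Tex10 intervals outside domains. HA-Tex10 was present in 31 of the 69 domains without a coding TSS (44.9%, 33.8 to 56.6%). With the mostly repeated domains left out it was present in 14 of 49 (28.6%, 17.8 to 42.4%). This range spans the 27.9% of domains with a coding TSS. The 14 include the ribosomal RNA locus and the Gm10222 block, where 14.6% and 16.4% of words recurred and HA-Tex10 covered nearly the whole domain. The word count did not include the mitochondrial chromosome or the unplaced scaffolds. Whether these loci have copies there, or others that the count missed, was not tested. The 14 are therefore not read as free of repeated sequence.

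Short motifs were counted in 200 bp windows on both strands, as letters and not as bound sites. The GC box, GGGCGG, occurred in 106 of 242 windows centred on HA-Tex10 in domains with a coding TSS (43.8%, 37.7 to 50.1%), in 48.6% of 1246 windows centred on HA-Tex10 in narrower intervals (45.9 to 51.4%) and in 25.04% of 13015 consecutive windows of the same domains (24.3 to 25.8%). The windows differed in GC content as well, with medians of 62.2%, 63% and 53%, and the part of GC content in the motif counts was not tested. Windows centred on the TSS give a comparison at equal position. There the GC box was in 64.7% of the 184 domain genes with HA-Tex10 within 500 bp and 63.1% of the 639 without. The cAMP response element, TGACGTCA, was in 13 of 184 (7.07%, 4.18 to 11.7%) and 13 of 639 (2.03%, 1.19 to 3.45%), ranges that do not overlap, while in windows centred on HA-Tex10 itself it was in 3 of 242 in domains (1.24%) and 30 of 1246 in narrower intervals (2.41%). The CCAAT box, CCAAT, was at the TSS of 37.5% (30.8 to 44.7%) with HA-Tex10 and 29% without (25.6 to 32.6%). The motif GCATGCG, part of the NRF1 site, the octamer ATGCAAAT and the E-box CACGTG were in 2.17 to 5.43% of windows with HA-Tex10 and 1.10 to 7.20% without. The GC median at these TSS was 64% with HA-Tex10 and 66% without. Of the 6 motifs, the element TGACGTCA was the one whose ranges were apart, and it was chosen for comment after its values were seen.

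A domain often had further H3K4me3 beside it. Another interval lay within 1 kb of 298 of the 775 (38.5%, 35.1 to 41.9%) and of 2173 of 10228 narrower intervals with a coding TSS (21.2%, 20.5 to 22.0%). If intervals within 1 kb of each other are joined, the list shortens to 22985 intervals and 1461 of them reach 3000 bp, so the number of domains depends on how neighbouring intervals are joined.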

How the data were processed

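Chromatin immunoprecipitation and input DNA were sequenced in 6 samples of day 2 PGCLCs, and the authors deposited interval lists of the whole series with a start and end in bp per line. The submitters' processing notes name the build mm10 and the tools Bowtie2 2.3.4.3, SAMtools 1.9, MACS2 2.1.2 and HOMER. Thresholds, the use of the input and the pooling of replicates are not given in the sources used here, and neither is the depth. None of the 32083 intervals read on chromosomes 1 to 19 ended past a GRCm38 chromosome end.

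Domains were H3K4me3 intervals of at least 3000 bp. Their members, the gene lists and the rule for named genes were chosen with earlier results of these data known. The rule named the 10 widest domains, the 5 with the most HA-Tex10 intervals, up to 4 genes per list by width and list genes with HA-Tex10 in their domain; other genes of the lists were named after their values were seen. TSS were starts of coding transcripts of coding genes in GENCODE release M21, and sequences came from the RefSeq GRCm38.p6 genome. Overlap meant at least 1 shared bp. Intervals were called mostly repeated when over 50% of their 32-base words recurred in the numbered, X and Y chromosomes. HA-Tex10 intervals under 100 bp were widened to 100 bp first. The mitochondrial chromosome and the unplaced scaffolds were left out of the word count. Ranges are Wilson (shares), Newcombe (differences), exact Poisson (per Mb) and order-statistic (medians) 95% intervals. Python 3.11.15, numpy 2.4.6 and pandas were used, and the interval functions were tested on simulated data. No test was run, because each antibody has 1 list. A further deposited list, the HA-Tex10 intervals that meet H3K4me3, served as an alternative only.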

Additional observations from a re-analysis of the deposited data

Results flagged for a closer look

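H3K4me3 intervals of 3000 bp or more also occurred outside chromosomes 1 to 19, in data that none of the comparisons above used. There were 4. Chromosome X had 3 among its 1008 H3K4me3 intervals (0.298%), the widest 3624 bp, and HA-Tex10 met 0 of them. The fourth was a single interval of 16299 bp over the whole mitochondrial chromosome, and the HA-Tex10 list also held 1 interval of 16298 bp there. Chromosome Y had 0 among 40 intervals and the unplaced scaffolds 0 among 69. The cause of the mitochondrial intervals was not tested.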

How the results depend on the processing

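Of 77 values recomputed under other choices, 36 stayed within the 95% interval of the reported value, or within 1.5 times a count, and 41 moved further. The count that changed sign was 0, but only the difference between domain and narrower genes could do so. Counts, shares, densities and GC content cannot be negative. For 3 of the 36, the further list could only return the reported value, since it holds every HA-Tex10 interval that meets H3K4me3, which leaves 33 of 74. Of the 77, 8 were chosen after seeing the data. The causes were not tested beyond what each choice does by its construction. With domains of at least 2, 4 or 5 kb there were 2929, 244 and 92 domains and 3061, 242 and 89 genes, and with neighbours within 1 kb merged 1461 domains and 1531 genes. The share at a coding TSS was 87.4% after merging, 94.7% with TSS of all gene types, 88.8% for a TSS inside the domain and 93.5% without mostly repeated domains. The share with at least 2 genes was 11.1% at 4 kb, 7.61% at 5 kb and 42.5% with all gene types. The downstream share was 79.4% at 5 kb and 60.5% with the 3′-most TSS. The share of domains with HA-Tex10 was 23.0%, 37.3% and 41.3% at 2, 4 and 5 kb, 16.4% with HA-Tex10 intervals wider than their median, 25.1% without chromosome 8 and 22.3% without both chromosome 8 and mostly repeated HA-Tex10. The density of HA-Tex10, 97.3 per Mb over all domains, was 49.8, 81.5 and 68.7 per Mb under the last 3 choices, and 85.6 without mostly repeated HA-Tex10. The difference between domain and narrower genes was 6.20 points with wider HA-Tex10 intervals, 6.61 without chromosome 8, 12.6 within 1 kb, 3.37 against the 2 to 3 kb class and 0.966 against that class without chromosome 8, with a range that includes 0. The share of HA-Tex10 centres near a TSS was 68.6%, 46.2% and 37.9% at 2, 4 and 5 kb, where 40.6%, 27.7% and 24.8% of bases lie, 66.3% without mostly repeated HA-Tex10, 66.9% with TSS of all gene types and 70.3% within 1 kb. Median GC content, 53.9% over all domains, was 54.9% at 2 kb, 53.2% after merging and 58.5% in the central 1000 bp. The lists have no replicates to leave out. No paired analysis was possible because the 2 samples of an antibody share 1 list.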
